A study of Mus musculus with 15 samples.

Results

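The comparison described here sets mouse embryonic stem (ES) cells held in full naive medium against the same cells 24 h after all of its active factors were withdrawn. Its members are 6 of the 15 arrays of the series, chosen by sample title: 3 of the 2iLIF group and 3 of the DMSO group. All 19937 genes that the array annotation names by a single symbol were compared. Both groups come from 1 ES cell line adapted to 2i medium. The line carries Ctnnb1-Biotin-3xFLAG, a biotin and FLAG tag knocked into the beta-catenin gene, and expresses BirA, the ligase that attaches biotin to it, so the DMSO controls carry these alleles too. The 2iLIF cells were in long-term culture with CHIR99021 at 3 µM, PD0325901 at 1 µM and the cytokine LIF. From the DMSO cells CHIR99021, PD0325901 and LIF had all been removed for the last 24 h. The other groups, also of 3 arrays each, lacked LIF for 24 h and kept both inhibitors (2i), CHIR99021 alone (CHIR) or PD0325901 alone (PD03). The labels do not say that the 3 samples of a group came from separate cultures, so the p-values below reflect only how much these arrays vary within a group, and that variation may be technical.

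CHIR99021 inhibits GSK3, the kinase that marks beta-catenin for destruction, and so keeps beta-catenin target genes free of repression by TCF factors. PD0325901 inhibits MEK and thereby the FGF-driven ERK cascade that moves ES cells out of the naive state, and LIF acts through the receptor subunit gp130 and STAT3 to sustain naive transcription factors. When all are removed, naive ES cells begin to pass to a formative state like that of the early postimplantation epiblast, in which de novo DNA methylation starts.

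Values are log2 RMA signals, a scale on which 1 unit is a 2-fold difference. The array medians lay between 6.98 and 7.06 over the 15 arrays. On the first principal component, which held 51.7% of the variance, the 3 2iLIF arrays lay between -22.9 and -21.7 and the 3 DMSO arrays between 19.9 and 23.5, at opposite ends. The 8 ES cell markers Pou5f1, Sox2, Nanog, Zfp42, Sall4, Utf1, Dppa4 and Tdgf1 had means from 10.17 to 12.72 in 2iLIF and from 9.82 to 12.54 in DMSO. Of 10 fibroblast or feeder markers 3 had a mean under 6 over these 6 arrays, and their summed values ran from 63.54 to 64.72 in 2iLIF and from 63.99 to 65.20 in DMSO. The 10 extra-embryonic endoderm markers also had 3 means under 6, and sums from 64.23 to 65.38 and from 63.84 to 64.92. A value under 6 is treated here as near background, because no detection calls were used. RNA was taken from whole cultures, so fewer cells expressing a gene and less RNA per cell cannot be told apart.

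A gene passed when its limma adjusted p, taken over all genes, was under 0.05. In 2iLIF minus DMSO 6916 genes passed, which is 34.7% of those tested: 3334 were higher in 2iLIF (16.7%) and 3582 were lower (18%). Most of these differences were small, with a median size of 0.28 on the log2 scale. A 2-fold minimum left 401 genes (2.01%), 200 higher and 201 lower. Differences of 4-fold or more were measured for 27 higher and 22 lower genes, and of 8-fold or more for 6 and 5. The 3 arrays of each group did not overlap for 8229 genes (41.3%). The median log2 difference of all genes was 0.0056.

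**Figure D1:**
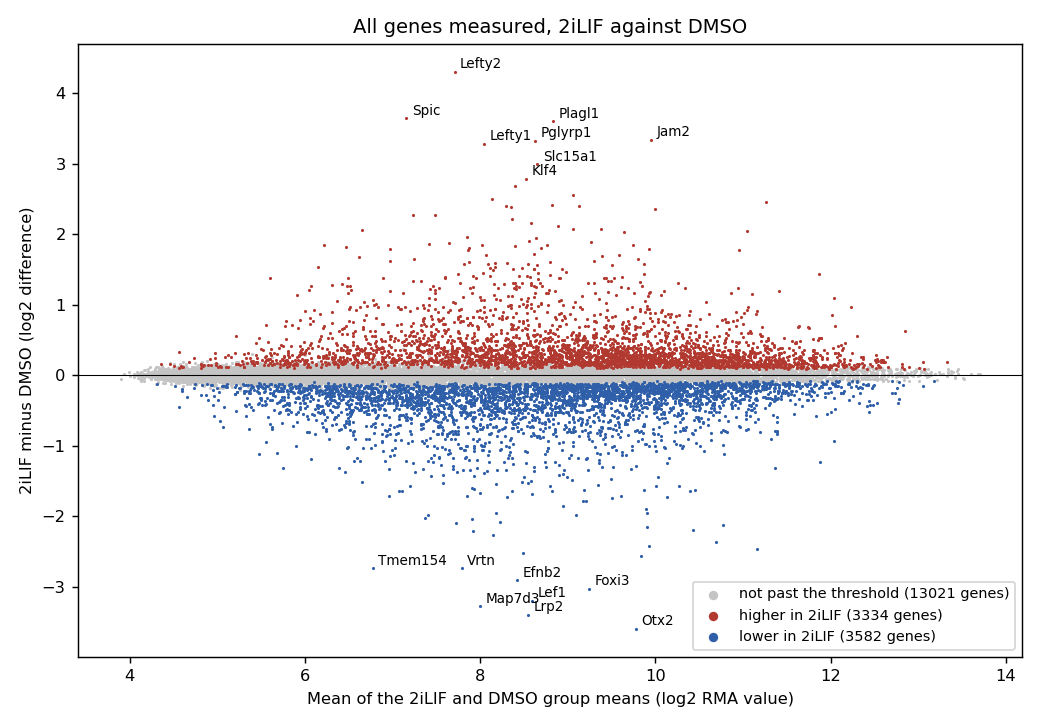
Each point is 1 of 19937 genes, with the mean of the 2iLIF and DMSO group means on the horizontal axis and 2iLIF minus DMSO on the vertical axis, both in log2 units. The 3334 genes higher in 2iLIF are red, the 3582 lower are blue, and the named genes lie furthest from 0, from Lefty2 at 4.30 to Otx2 at -3.60.

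The gene with the largest difference was Lefty2, which encodes a secreted antagonist of Nodal. It read 9.89, 9.93 and 9.77 on the 2iLIF arrays and 5.48, 5.58 and 5.62 on the DMSO arrays. All DMSO values were under 6, so the difference of 4.30 ± 0.07 (SE), or 19.7-fold, is a lower bound if they are background. Spic, an ETS-family factor gene, read 8.82, 9.10 and 9.02 against 5.32, 5.33 and 5.38, again with every DMSO array near background, and differed by 3.64 ± 0.10. Plagl1, an imprinted zinc finger gene, read 10.62, 10.66 and 10.62 against 7.33, 7.04 and 6.73. Its difference of 3.60 ± 0.10 is 12.1-fold, and the DMSO arrays of Plagl1 spread more than its 2iLIF arrays (SD 0.30 and 0.02).

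Jam2, a junctional adhesion molecule gene and a marker of naive cells, read 11.59, 11.71 and 11.55 in 2iLIF and 8.39, 8.18 and 8.27 in DMSO. It was 10.1-fold higher (3.34 ± 0.05). Pglyrp1, a peptidoglycan recognition protein gene, was at 3.32 ± 0.10 and Lefty1, the second Lefty gene, at 3.28 ± 0.13. The peptide transporter gene Slc15a1 (2.99), the zinc transporter gene Slc30a2 (2.49), the creatine kinase gene Ckb (2.45), the Ras-like GTPase gene Mras (2.41), Lrrc34 (2.40) and the Ras activator gene Rasgrp1 (2.40) were also among the 15 highest. Klf4, Prdm14 and Tbx3 completed that set and are described with the naive genes. The other probe set of Mras gave 1.66. Whatever their size, none of these 15 genes overlapped between the groups, which the rule for naming them required.

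At the other end stood Otx2, a homeobox gene of the postimplantation epiblast and of the later forebrain. It read 7.85, 8.12 and 7.98 in 2iLIF and 11.51, 11.60 and 11.64 in DMSO, a difference of -3.60 ± 0.06 that makes it 12.1-fold higher after withdrawal. Lrp2, the endocytic receptor megalin, read 6.75, 6.84 and 6.95 against 10.19, 10.26 and 10.29 (-3.40 ± 0.05). Lef1, a TCF/LEF transcription factor gene, read 7.03, 7.03 and 6.91 against 10.06, 10.28 and 10.24 (-3.20 ± 0.05, 9.19-fold higher in DMSO). The rule for naming these genes required no overlap. In each the highest 2iLIF array was far below the lowest DMSO array.

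The microtubule-associated protein gene Map7d3 was at -3.28 ± 0.12, the forkhead gene Foxi3 at -3.03 ± 0.10 and the ephrin ligand gene Efnb2 at -2.91 ± 0.09. Tmem154, at -2.74 ± 0.08, had a 2iLIF mean of 5.40, near background, and its other probe set gave -1.30. Vrtn was at -2.74 ± 0.09, the membrane-bound transcription factor gene Myrf at -2.52, the ecto-nucleotidase gene Enpp3 at -2.46, the kinase gene Pim2 at -2.42 and Gramd3 at -2.21. Dnmt3a, Dnmt3b and Dusp4 were the other 3 of the 15 lowest. Over the 15 highest and the 15 lowest genes the largest limma adjusted p was 4.39e-10.

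**Figure D2:**
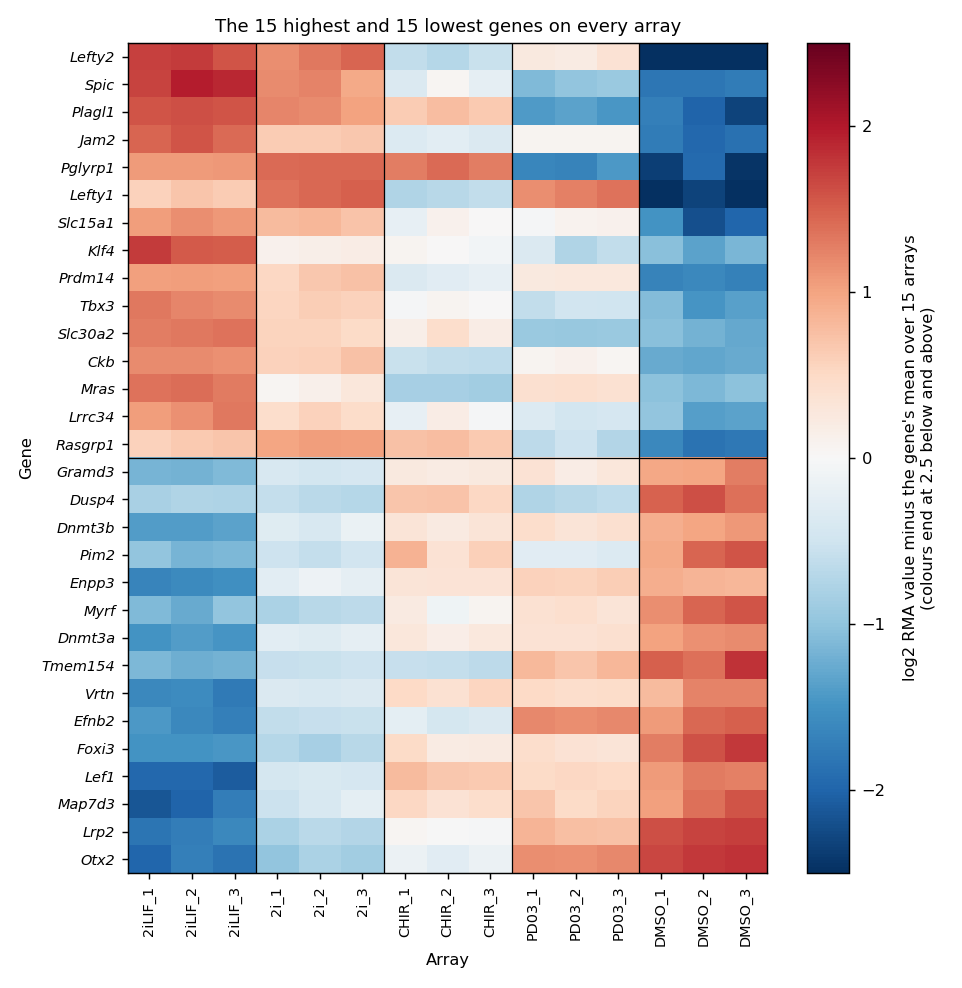
Rows are the 15 highest and the 15 lowest genes of 2iLIF minus DMSO and columns the 15 arrays, with colour for the log2 RMA value minus the gene's mean over all arrays. The 2iLIF and DMSO columns have opposite colours in every gene shown, while in 13 of the 15 highest and 9 of the 15 lowest genes the difference between the 2i and DMSO columns was larger than that between 2iLIF and 2i by the gene-by-gene test of that difference.

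Naive pluripotency genes were mostly higher in 2iLIF. Of 22 measured, 16 were higher and 3 lower, with a median log2 difference of 0.79, and 8 were higher by at least 2-fold. Klf4, a Krüppel-like factor gene under LIF control, read 10.07, 9.85 and 9.82 in 2iLIF and 7.27, 6.97 and 7.17 in DMSO, which is 6.86-fold higher (2.78 ± 0.09, limma adjusted p = 1.71e-12). Prdm14, a repressor of de novo methyltransferase genes, read 9.73, 9.76 and 9.73 against 7.04, 7.11 and 7.02 (2.68 ± 0.05, 6.42-fold). Both are among the 15 highest genes, whose naming required no overlap, and their groups lay more than 2 log2 units apart. Tbx3, a T-box factor gene, was at 2.55 ± 0.07 and Tfcp2l1, a CP2-family factor gene that LIF and STAT3 activate, at 2.05 ± 0.05.

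Klf2, another Krüppel-like factor gene and a target of MEK inhibition, read 10.12, 10.09 and 10.09 against 8.79, 8.71 and 8.69 (1.37 ± 0.04, 2.59-fold). Nanog, a homeobox gene of the naive network, read 12.72, 12.76 and 12.68 in 2iLIF and 11.86, 11.71 and 11.67 in DMSO. Its difference of 0.97 ± 0.04 is 1.96-fold, and the groups did not overlap.

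General pluripotency genes took another course. Of 15 measured, 2 were higher and 9 lower in 2iLIF, with a median of -0.19. Pou5f1, the gene of the core factor Oct4, read 12.56, 12.51 and 12.47 in 2iLIF and 12.52, 12.54 and 12.56 in DMSO. These values overlapped, and the difference of -0.03 ± 0.03 did not pass (limma adjusted p = 0.605). Sox2 read 11.54, 11.53 and 11.51 against 11.51, 11.35 and 11.37, with 1 DMSO array at the lowest 2iLIF value. It passed narrowly at 0.12 ± 0.04 (adjusted p = 0.0477), and with 1 replicate of 2iLIF, 2i or DMSO left out at a time Sox2 lost the call in 8 of 9 fits, in which 1 general pluripotency gene was then higher. Without 2iLIF replicate 1, 2 or 3 its adjusted p was 0.104, 0.109 and 0.0716, without 2i replicate 1, 2 or 3 it was 0.0546, 0.0583 and 0.0568, and without DMSO replicate 2 or 3 it was 0.181 and 0.164.

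Among the lower members were Lin28b and Lin28a, whose products block maturation of let-7 microRNAs, at -1.01 ± 0.08 and -0.92 ± 0.06. Utf1, a chromatin factor gene, was at -0.94 ± 0.04 and read 11.66, 11.57 and 11.5 in 2iLIF against 12.56, 12.47 and 12.50 in DMSO. Dppa4, a chromatin-associated gene of pluripotent cells, was at -0.59 ± 0.06, and its other probe set gave -0.56.

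**Figure D3:**
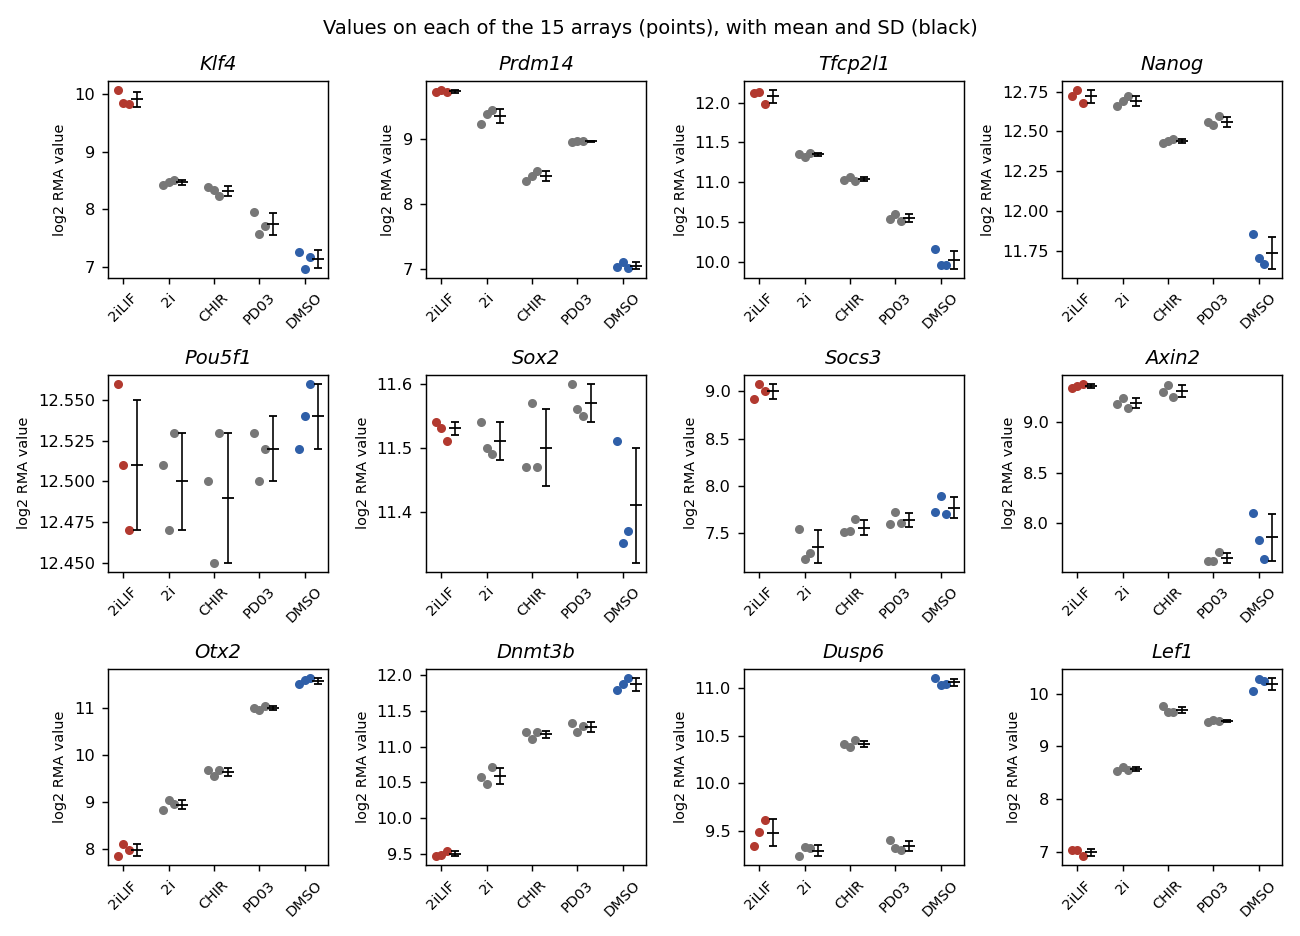
Points are the log2 RMA values of 12 genes on each of the 3 arrays of the 5 groups, and black bars are the mean and SD, with a separate vertical scale for each gene. Klf4, Prdm14 and Tfcp2l1 are highest in 2iLIF and lowest in DMSO, Otx2, Dnmt3b and Lef1 run the other way, Socs3 is high in 2iLIF alone, and the Pou5f1 panel spans 12.47 to 12.56 in these 2 groups.

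Formative and primed epiblast genes were lower in 2iLIF in 19 of 23 measured cases and higher in 0, with a median of -1.08, and 12 were lower by at least 2-fold. Otx2, Lef1, Dnmt3a and Pim2 led them. Fgf5, a growth factor gene of the early epiblast, read 7.12, 7.13 and 7.10 in 2iLIF and 8.34, 8.74 and 9.14 in DMSO. The SD of Fgf5 was 0.01 in 2iLIF and 0.40 in DMSO, the groups did not overlap, and the difference was -1.62 ± 0.14 (3.08-fold higher in DMSO).

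The DNA methylation machinery had 7 of 12 genes lower in 2iLIF and 1 higher. Dnmt3a, a de novo methyltransferase gene, read 8.52, 8.60 and 8.54 in 2iLIF and 11.02, 11.15 and 11.19 in DMSO, which is 5.94-fold higher after withdrawal (-2.57 ± 0.05). Dnmt3b, the other catalytic de novo enzyme gene, read 9.48, 9.49 and 9.55 against 11.79, 11.87 and 11.96 (-2.37 ± 0.06, 5.16-fold). Dnmt3l, the catalytically inactive partner of both, was at -2.13 ± 0.06. Uhrf2, a relative of the maintenance factor gene Uhrf1, was at -0.52 ± 0.07.

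Of 20 germ line genes known to be silenced by DNA methylation, 10 were lower in 2iLIF and 1 higher, with a median of -0.13. The called share was 55.0% against 34.7% of all genes. The count of lower genes was 5 without DMSO replicate 1 or 3 and 6 without 2iLIF replicate 1, and that of higher genes 2 without 2iLIF replicate 1, 2i replicate 1 or 3 or DMSO replicate 3. Mael, a gene of the piRNA pathway, read 6.33, 6.30 and 6.22 against 7.74, 7.80 and 8.24 (-1.64 ± 0.10). The PIWI gene Piwil2 was at -0.79 ± 0.05 and the meiotic gene Hormad1 at -0.50 ± 0.05, while Tex11 (-0.58 ± 0.08) had means of 5.04 in 2iLIF and 5.62 in DMSO, near background.

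Among ERK response and feedback genes 16 of 25 measured fell below DMSO in 2iLIF and 2 were above it, with a median of -0.32. The count above was 1 without 2iLIF replicate 1 or 2 or DMSO replicate 2 or 3. It was also 1 with the mean of all probe sets of a gene, after cyclic loess between arrays, and in a fit of the 6 arrays alone. Dusp4, an ERK phosphatase gene that ERK signalling induces, read 6.98, 7.04 and 7.02 in 2iLIF and 9.27, 9.40 and 9.18 in DMSO (-2.27 ± 0.06, 4.82-fold higher in DMSO). Dusp6, a second such phosphatase gene, read 9.34, 9.49 and 9.61 against 11.11, 11.03 and 11.04 (-1.58 ± 0.06). The PEA3-type ETS factor gene Etv4 was at -1.30 ± 0.08 and Spry4, a Sprouty feedback inhibitor gene, at -1.14 ± 0.09. In none of these 4 did the groups overlap, as in 96.2% of all genes that passed.

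For Dusp6, Etv4 and Spry4 the 2iLIF arrays stood above the 2i arrays, which also had PD0325901 but no LIF: 2iLIF minus 2i was 0.19, 0.31 and 0.69 (limma adjusted p = 0.0439, 0.016 and 7.09e-05). Their 2i minus DMSO differences were -1.77, -1.61 and -1.84. Dusp4 did not pass in 2iLIF minus 2i (-0.13, adjusted p = 0.233). Egr1, an immediate early gene, read 6.52, 6.33 and 6.46 in 2iLIF and 7.01, 6.93 and 6.61 in DMSO (-0.42 ± 0.09, adjusted p = 0.00112). Etv5, noted after its values were seen, has 2 probe sets that differ: the one with the higher mean gave 0.10 and the other -1.06.

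Of 14 FGF ligand and receptor genes, 7 were lower and 1 was higher, a called share of 57.1% against 34.7% of all genes. The receptor gene Fgfr2 read 6.65, 6.56 and 6.66 against 8.01, 7.81 and 7.75 (-1.24 ± 0.08), and the decoy receptor gene Fgfrl1 was at -0.47 ± 0.04. The higher one was Fgf10, at 6.75, 6.64 and 6.75 in 2iLIF against 5.46, 5.5 and 5.37 in DMSO (1.27 ± 0.06), with DMSO near background.

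LIF and STAT3 targets were higher in 9 of 21 measured cases and lower in 4, with a median of 0.12. In 2iLIF minus 2i, where of CHIR99021, PD0325901 and LIF only LIF differs, 12 were higher and 0 lower with a median of 0.25. Of all genes, 4.56% were higher and 7.66% lower in 2iLIF minus 2i. Socs3, a feedback inhibitor gene of JAK kinases and a direct STAT3 target, read 8.92, 9.08 and 9.0 in 2iLIF and 7.72, 7.89 and 7.70 in DMSO (1.23 ± 0.08, 2.34-fold). Its 2i mean of 7.36 ± 0.17 (SD, n = 3) was below the DMSO arrays, so 2iLIF minus 2i was 1.64 while 2i minus DMSO was -0.41 (limma adjusted p = 1.4e-09 and 0.000659). The other probe set of Socs3 gave 0.04 in 2iLIF minus DMSO, so the call rests on 1 of 2 probe sets.

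Bcl3, an atypical IκB gene, read 10.03, 9.98 and 9.81 in 2iLIF and 7.64, 7.92 and 7.92 in DMSO, a 4.34-fold difference (2.12 ± 0.08). Of that difference 1.83 lay between 2iLIF and 2i and 0.29 between 2i and DMSO. Klf4 and Tfcp2l1 belong to the same list. Klf4 divided about evenly, at 1.45 and 1.33, and Tfcp2l1 as 0.73 and 1.33. Stat3 itself read 10.47, 10.40 and 10.30 against 9.39, 9.47 and 9.50 (0.94 ± 0.05), with 0.71 in 2iLIF minus 2i.

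Among LIF receptor and JAK/STAT components 3 of 15 were higher and 4 lower, a called share of 46.7% against 34.7% of all genes. Without 2iLIF replicate 1 there were 5 higher. Il6st, the gene of the shared receptor subunit gp130, was at 0.85 ± 0.05, and of this 0.79 lay in 2i minus DMSO. Cntfr, the receptor gene of a related cytokine, read 7.56, 7.32 and 7.31 in 2iLIF and 8.76, 8.68 and 8.83 in DMSO (-1.36 ± 0.07). Pias3, an inhibitor gene of STAT3, was at -0.41 ± 0.04.

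The letters TTCNNNGAA, a core that STAT factors are known to bind, were searched in RefSeq promoters (assembly GRCm38.p6, 250 bases before to 50 after each start). The pattern reads alike on both strands. It was present in 11.3% of 186 promoters of the genes at least 2-fold higher in 2iLIF, in 7.46% of 201 promoters of those at least 2-fold lower, and in 7.66% of the 19176 promoters of all genes tested. For the genes at least 2-fold higher in 2iLIF minus 2i it was 4 of 21 promoters (19%). The letters CTTTGAT, a TCF/LEF core searched on both strands, were in 3.23%, 2.49% and 3.18% of the first 3 sets. The promoter stretch of Socs3 is shown because in Socs3 the 2iLIF minus 2i difference exceeded the 2i minus DMSO difference by 2.05, and its match, in capitals, starts at base -154. No match was in the promoters of Bcl3, Stat3, Klf4 or Tfcp2l1, and 1 promoter each of Otx2 and Dnmt3l, which were lower in 2iLIF, held one. The Socs3 stretch runs from base -200 to -101, at chr11:117969467-117969566 on the minus strand, 5′ to 3′.
Socs3: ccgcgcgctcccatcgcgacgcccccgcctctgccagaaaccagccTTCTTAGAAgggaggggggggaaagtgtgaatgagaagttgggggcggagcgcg
A match of letters describes the sequence and shows no binding.

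Wnt/beta-catenin targets were split, with 6 of 18 measured higher in 2iLIF and 5 lower and a median of 0.04. Axin2, a feedback target that encodes a scaffold of the destruction complex, read 9.34, 9.36 and 9.38 in 2iLIF and 8.10, 7.83 and 7.65 in DMSO (1.5 ± 0.08, 2.83-fold). Notum, which encodes a secreted enzyme that inactivates Wnt ligands, was at 0.98 ± 0.06. Lef1, also a Wnt target in many tissues, was 9.19-fold higher in DMSO, and Myc, at 8.95, 8.94 and 9.0 against 9.49, 9.84 and 9.99, was lower in 2iLIF as well (-0.81 ± 0.13).

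Of 14 genes of the beta-catenin complex and TCF factors 1 was higher and 7 lower, none by 2-fold. The called share was 57.1% against 34.7% of all genes. The higher call was lost without 2iLIF replicate 1 or 2 or DMSO replicate 3. Tcf7l1, the main repressor of beta-catenin targets in ES cells, was at -0.43 ± 0.04 and the coactivator gene Bcl9 at -0.37 ± 0.05. Ctnnb1, the tagged gene, read 11.89, 11.93 and 11.92 in 2iLIF and 12, 11.99 and 12.01 in DMSO. Its difference of -0.09 ± 0.03 passed (adjusted p = 0.0398) but Ctnnb1 lost the call in 7 of 9 fits with 1 replicate left out: without 2iLIF replicate 1, 2 or 3 (0.121, 0.0541 and 0.0685), 2i replicate 2 (0.0513) or DMSO replicate 1, 2 or 3 (0.0824, 0.0595 and 0.101).

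In Nodal signalling 7 of 16 genes were higher and 5 lower, and 4 of the higher ones by at least 2-fold. Nodal, the TGF-beta family ligand gene, read 10.27, 10.36 and 10.23 in 2iLIF and 8.74, 8.75 and 8.69 in DMSO (1.56 ± 0.04, 2.95-fold). Pcsk6, which encodes a convertase that processes Nodal, was at 1.43 ± 0.04. Lefty1 read 9.63, 9.75 and 9.69 against 5.97, 6.74 and 6.51, and its 2i mean of 10.47 exceeded that of 2iLIF, so that 2iLIF minus 2i was -0.78 and 2i minus DMSO 4.06. Of BMP signalling and Id genes 5 of 18 were higher and 3 lower, a called share of 44.4% against 34.7% of all genes. Bmp7 was at 0.81 ± 0.07, Id4 at 0.77 ± 0.08, Bmp4 at 0.66 ± 0.08 and Id2 at -0.53 ± 0.10.

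The whole difference can be divided into 2iLIF minus 2i, the LIF step, and 2i minus DMSO, the inhibitor step. Both share arrays with the whole and with each other, so their values are given side by side and are not independent. No group had LIF without the inhibitors. The LIF step was therefore read only with both inhibitors present, and the inhibitor step, which changes both inhibitors at once, only without LIF. The labels give the 2iLIF cells no withdrawal time. Any effect of the withdrawal handling itself falls in the LIF step and cannot be told apart from LIF. How the whole would divide in the other order was not tested. In the LIF step 2437 genes passed (12.2%), and a 2-fold minimum left 26 higher and 16 lower, or 0.211% of all genes (0.13% and 0.0803%). In the inhibitor step 5088 passed (25.5%), 13.6% higher and 11.9% lower, and a 2-fold minimum left 100 higher and 80 lower, or 0.903% (0.502% and 0.401%). A test of the LIF step minus the inhibitor step, gene by gene, passed for 1735 genes (8.7%), with the difference above 0 in 3.33% and below 0 in 5.38% of all genes.

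Of the 200 genes at least 2-fold higher in 2iLIF, the inhibitor step was the larger by that test in 109 and the LIF step in 31, and the test did not pass for 60. Of the 201 genes at least 2-fold lower these counts were 110, 9 and 82. The mean of 2i lay strictly between those of DMSO and 2iLIF for 173 of the 200 and 193 of the 201. As a share of the way from DMSO to 2iLIF, the median 2i value stood at 66.4% for the higher and 67.7% for the lower genes. CHIR stood at 36.6% and 43.7%, and PD03 at 32.4% and 34.1%.

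The genes in which the LIF step exceeded most included Socs3 and Bcl3, described above, and 4 others. Serping1, a complement inhibitor gene, read 7.89, 8.08 and 7.90 in 2iLIF, averaged 6.70 in 2i, and read 7.17, 7.13 and 7.41 in DMSO. The orphan receptor kinase gene Ror1 was at -1.27 in the LIF step and 0.73 in the inhibitor step, the cyclin gene Ccnd2 at -1.14 and 0.42, and the corepressor gene Runx1t1 at -1.11 and 0.42. In these 3, 2i was above both ends, and the totals were -0.54, -0.72 and -0.69.

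The inhibitor step exceeded most in Lefty1, Pglyrp1, Lefty2, Rasgrp1, Gmnc and Plagl1. Pglyrp1 and Rasgrp1 were higher in 2i than in 2iLIF: the LIF step was -0.35 and -0.38, and the inhibitor step 3.67 and 2.78. Gmnc, a gene of the geminin family that drives multiciliated cell formation in other tissues, read 6.52, 6.76 and 6.67 in 2iLIF and 5.37, 5.59 and 5.36 in DMSO. All DMSO values of Gmnc were under 6, near background. Its mean was 7.55 in 2i and 9.19 in CHIR, above the 2iLIF arrays in both. For Lef1, Dnmt3a, Dnmt3b, Vrtn and Map7d3 the steps did not differ by the test, with Lef1 at -1.58 and -1.62.

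Lysosomal genes and the TFEB family were higher in 2iLIF in 16 of 21 measured cases and lower in 1, with a median of 0.28. Ctsc, a lysosomal protease gene, read 10.32, 10.46 and 10.48 against 8.49, 8.23 and 8.32 (2.07 ± 0.07, 4.21-fold). The transcription factor gene Mitf was also at 2.07 ± 0.05, although its other probe set gave 0.52. Hexa, which encodes a subunit of hexosaminidase, was at 1.03 ± 0.06 and the membrane protein gene Lamp2 at 0.78 ± 0.06.

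Respiratory chain and ATP synthase genes had 15 of 23 higher and 0 lower, by modest amounts around a median of 0.16. Cox7a1, a cytochrome oxidase subunit gene, was at 0.70 ± 0.07, the succinate dehydrogenase gene Sdhb at 0.42 ± 0.04, Atp5o at 0.39 ± 0.04 and Cox5a at 0.36 ± 0.04. Cholesterol synthesis genes went the other way, with 16 of 19 lower and 0 higher (1 without 2iLIF replicate 1) and a median of -0.19. The cyclase gene Lss read 10.23, 10.26 and 10.24 in 2iLIF and 10.82, 10.99 and 11.06 in DMSO (-0.71 ± 0.06). Hsd17b7 was at -0.56, the epoxidase gene Sqle at -0.49 and Mvd at -0.46. Fatty acid synthesis genes had 5 higher and 4 lower of 16 (3 higher without 2iLIF replicate 1). Their called share was 56.2% against 34.7% of all genes. The acyl-CoA ligase gene Acsl4 was at -1.64 ± 0.05 and the acetyl-CoA carboxylase gene Acaca at -0.50 ± 0.05. Me1 was higher, at 0.60 ± 0.07, and its other probe set gave 0.75.

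Glycolysis genes were split, 6 higher and 7 lower of 20. The glucose transporter gene Slc2a3, which reached 13.15, 13.20 and 13.14 in 2iLIF, was at 0.62 ± 0.05 and the regulator gene Pfkfb3 at 0.71 ± 0.06, while Pfkm was at -1.0 ± 0.05 and Eno3 at -0.77 ± 0.04. Of 17 amino acid transporter genes, 12 were lower and 4 higher, with a median of -0.39. The glutamate transporter gene Slc1a3 read 6.89, 6.89 and 6.88 against 8.86, 8.94 and 8.98 (-2.04 ± 0.04), and the cystine transporter gene Slc7a11 was at -0.99 ± 0.06. Slc15a1 and Slc6a15 (1.12 ± 0.06) were higher.

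Integrated stress response and serine synthesis genes had 12 of 21 lower and 3 higher, with Chac1, a glutathione-degrading enzyme gene, at -0.81 ± 0.06 and Ddit3 higher at 0.44 ± 0.07. NRF2 and glutathione genes had 8 higher and 7 lower of 19. Gss, the glutathione synthetase gene, was at 1.33 ± 0.05 and the peroxidase gene Gpx2 at 1.24 ± 0.09, and Gpx3 was at -0.89 ± 0.07. Of S and G2/M phase genes 7 of 19 were lower and 0 higher, a called share of 36.8% against 34.7% of all genes. Each differed by little, with Cdc20 and Plk1 both at -0.30. The count of lower phase genes was 11 after cyclic loess between arrays.

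Ribosomal protein genes had 15 of 60 higher and 1 lower, a called share of 26.7% against 34.7% of all genes. That count of higher ones depended on the setting: it was 8 without 2iLIF replicate 2, 9 without 2iLIF replicate 3, 8 in a fit of the 6 arrays alone and 26 with a mean-variance trend, and the lower one was lost without 2iLIF replicate 1 or DMSO replicate 1 and joined by another without DMSO replicate 3. Ribosomal protein genes have near-identical copies in the genome, so single values of this family are uncertain.

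**Figure D4:**
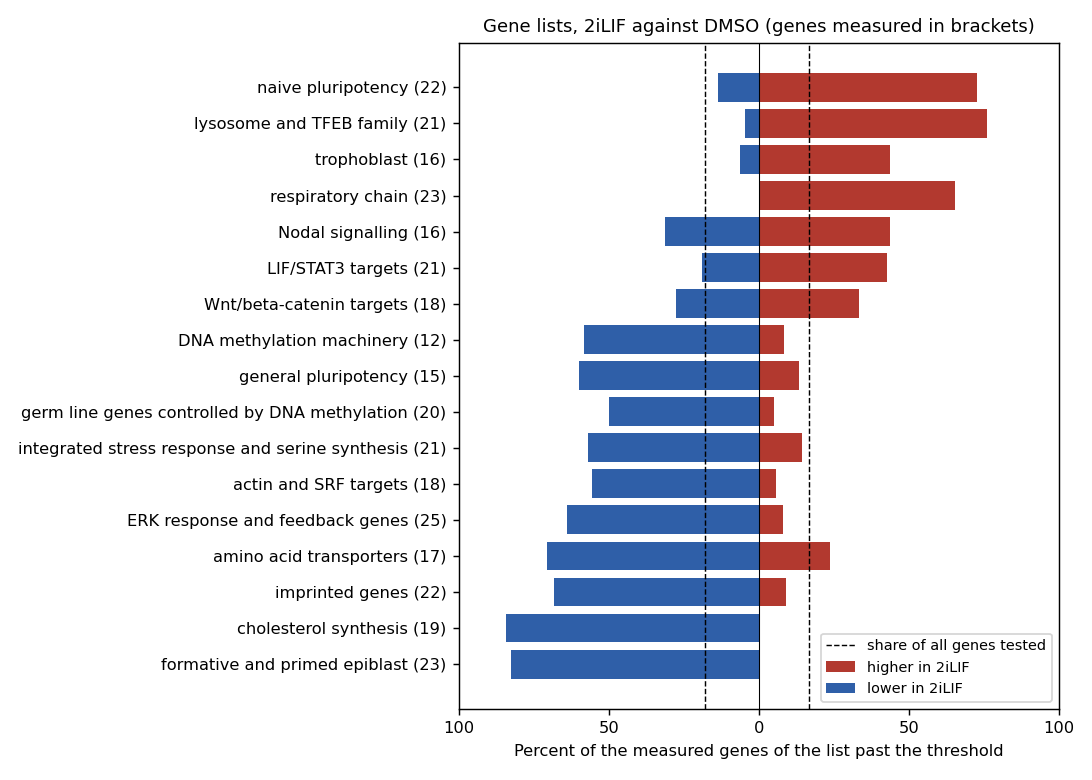
Bars give the percent of measured genes that passed in 2iLIF minus DMSO for 17 gene lists picked from the 47. Higher genes run to the right in red and lower ones to the left in blue, with dashed lines at the shares of all genes tested (16.7% and 18%). Lists not drawn include some with called shares under the 34.7% of all genes, such as Hox (8.11%) and ribosomal protein genes (26.7%). Naive pluripotency (16 of 22 higher), lysosomal (16 of 21) and respiratory chain genes (15 of 23) reach furthest right, and formative epiblast (19 of 23 lower) and cholesterol synthesis genes (16 of 19) furthest left.

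Imprinted genes, expressed from 1 parental allele, were lower in 2iLIF in 15 of 22 measured cases and higher in 2, with a median of -0.40. Peg10, a retrotransposon-derived gene, read 9.28, 9.22 and 9.31 in 2iLIF and 10.87, 11 and 11.14 in DMSO (-1.73 ± 0.07). Peg3 was at -1.32 ± 0.03 and Nnat at -1.30 ± 0.08. Plagl1 stood out as the higher member with the largest difference.

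Polycomb and histone demethylase genes had 4 higher and 8 lower of 20, and without 2iLIF replicate 3 or DMSO replicate 2 there were 2 higher. The Polycomb accessory gene Phf19 was at -1.10 ± 0.05 and the demethylase gene Kdm2b at -0.98 ± 0.05, while Kdm3a was at 0.75 ± 0.04. Eed, a core subunit gene of Polycomb complex PRC2, was at 0.56 ± 0.04, and its other probe set gave -0.02. In the retinoic acid pathway the called share of 31.2% was near that of all genes, 4 of 16 were lower and 1 higher, and the higher call was lost without 2iLIF replicate 3 or DMSO replicate 1. The receptor gene Rarg was at -1.90 ± 0.05 and the binding protein gene Crabp2 at -1.60 ± 0.10.

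Of 18 actin cytoskeleton genes and SRF targets, 10 were lower and 1 was higher (2 without 2iLIF replicate 3). Srf itself read 8.71, 8.70 and 8.66 against 9.45, 9.48 and 9.52 (-0.79 ± 0.04), the calponin gene Cnn2 was at -1.01 ± 0.08 and Tpm2 at -0.84 ± 0.06. The exception was the annexin gene Anxa2, at 1.5 ± 0.12. Epithelial junction and keratin genes were called in 17 of 20 cases, 7 higher and 10 lower: the desmosomal genes Dsp and Dsg2 were at 1.86 ± 0.09 and 1.30 ± 0.05, and the splicing factor gene Esrp1 at -1.44 ± 0.04.

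Eph receptors and ephrins had 7 higher and 4 lower of 19, a called share of 57.9% against 34.7% of all genes. The receptor gene Epha4 was at 1.69 ± 0.04 and the ligand gene Efna3 at 1.41 ± 0.04 against Efnb2 at -2.91. In the Notch pathway 4 were higher and 7 lower of 16. Hes1, a repressor gene that Notch and other signals induce, read 9.38, 9.31 and 9.25 against 7.55, 7.48 and 7.42 (1.83 ± 0.07), the ligand gene Jag1 was at 1.01 ± 0.07 and the ligand gene Dll1 at -0.94 ± 0.06.

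In the Bcl2 family 6 of 13 were lower and 1 higher (2 without 2iLIF replicate 3 or DMSO replicate 3). The called share was 53.8% against 34.7% of all genes. The pro-apoptotic genes Bcl2l11 and Pmaip1 were at -1.34 ± 0.06 and -1.12 ± 0.08, and Bid was at 0.38 ± 0.05. Interferon and innate response genes had 7 higher and 1 lower of 17, a called share of 47.1% against 34.7% of all genes. Among the higher were the MHC light chain gene B2m at 1.26 ± 0.09 and Irf9, a partner of STAT factors, at 0.88 ± 0.05. Of 37 Hox genes 3 were higher and 0 lower, a called share of 8.11% against 34.7% of all genes, and a pair of neighbours passed 2-fold: Hoxc12 read 7.71, 7.51 and 7.53 against 6.13, 6.20 and 6.29 (1.38 ± 0.07), and Hoxc13 was at 1.28 ± 0.06 with DMSO arrays under 6.

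Of 16 trophoblast genes, 7 were higher and 1 was lower (2 without 2iLIF replicate 1 or DMSO replicate 2 or 3). The AP2 factor gene Tfap2c read 8.74, 8.90 and 8.86 in 2iLIF and 6.88, 6.98 and 6.76 in DMSO (1.96 ± 0.08), Eomes was at 1.80 ± 0.10, the TEAD factor gene Tead4 at 1.24 ± 0.04 and the keratin gene Krt8 at 1.05 ± 0.07. Of the 8 trophoblast markers used to look for such cells, Cdx2, Elf5, Gata3, Hand1, Krt7, Ascl2, Esx1 and Tfap2c, 1 was higher and 0 lower, and 3 had means under 6. Their summed values ran from 52.15 to 52.73 in 2iLIF and from 50.22 to 51.04 in DMSO. Tfap2c, at 1.96, was the marker called, and none of the other 7 passed.

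Of 6 measured primitive streak markers 2 were higher and 0 lower, where 34.7% of all genes passed. The marker T, also chosen, was not found under that symbol. Sums over the 6 ran from 43.28 to 43.66 in 2iLIF and from 40.75 to 41.66 in DMSO. Eomes, at 1.80, had the largest difference of these markers. Of 17 primitive streak and mesoderm genes 4 were higher and 1 lower, a called share of 29.4% against 34.7% of all genes. The lower call was lost without 2iLIF replicate 3 or DMSO replicate 1. Of the 7 neural markers measured 1 was higher and 2 lower, again beside 34.7% of all genes. Neural sums ran from 49.87 to 50.35 in 2iLIF and from 50.47 to 50.99 in DMSO. Pax6, a neural and eye homeobox gene, read 6.54, 6.55 and 6.52 against 7.80, 7.81 and 7.67 (-1.22 ± 0.05), and Map2 was at 0.57 ± 0.05. Of 20 extra-embryonic endoderm genes 3 were higher and 4 lower, a called share of 35.0%, near the 34.7% of all genes. The laminin gene Lama1 was at 1.84 ± 0.05, and Lrp2 (-3.40), Srgn (-0.70) and Lamb1 (-0.35) were lower. What part other cell types have in these differences was not tested.

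MicroRNA genes were read here through the longer transcripts that hold them and not as mature microRNAs. Of 300 measured, 13 were higher and 50 lower, a called share of 21.0% against 34.7% of all genes. With 2iLIF replicate 1 left out 20 were higher, and among genes with a mean of at least 6 there were 30 lower. The highest was Mir218-1, at 6.46, 6.50 and 6.43 in 2iLIF against 5.59, 5.78 and 5.6 in DMSO (0.81 ± 0.06), with DMSO near background. Mir15a was at 0.60 ± 0.07. Mir100hg, at 0.42 ± 0.07, had means of 5.94 in 2iLIF and 5.52 in DMSO, near background.

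Of the 50 lower microRNA genes, 32 lay between Dlk1 and Dio3 on chromosome 12, an imprinted region whose maternal noncoding RNAs Meg3 and Rian host a large microRNA cluster. The region was singled out after its values were seen. All 40 of its measured microRNA genes had a difference below 0, from -1.42 to -0.06, with a median of -0.45, and 32 passed. Of those that passed, Mir136, Mir299a, Mir369, Mir376a, Mir376b, Mir376c, Mir379, Mir381, Mir412 and Mir495 had means under 6 in both groups, near background. The means of Mir154, Mir380, Mir411, Mir541 and Mir543 were under 6 in 2iLIF. The other 260 microRNA genes had 13 higher and 18 lower with a median of 0.00. Mir300 read 6.89, 6.98 and 6.74 in 2iLIF and 8.27, 8.11 and 8.48 in DMSO (-1.42 ± 0.10, 2.67-fold higher in DMSO). Mir377 read 8.22, 8.20 and 8.28 against 9.28, 9.48 and 9.64 (-1.23 ± 0.07) and Mir382 8.07, 8.15 and 8.17 against 9.34, 9.30 and 9.44 (-1.23 ± 0.06). Mir539 was at -1.32 ± 0.07 with a 2iLIF mean of 5.73, near background, and Mir679 at -1.04 ± 0.07.

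The long noncoding hosts went with them: Rian read 8.05, 8.15 and 8.36 against 9.28, 9.39 and 9.23 (-1.12 ± 0.07), and Meg3 10.46, 10.35 and 10.33 against 11.18, 11.17 and 11.14 (-0.78 ± 0.05). Dlk1, the paternally expressed growth regulator gene at one edge, was at -0.10 (adjusted p = 0.383), and Dio3, a deiodinase gene at the other edge, at 0.25 (adjusted p = 0.012). Of the 7 measured genes of the region that are not microRNA genes, 5 were lower and 1 higher. Rtl1 was among the lower ones, at -0.40 (limma adjusted p = 1.47e-05). These microRNA genes share precursor transcripts, so they are not separate observations. In the LIF step 0 of the 40 were lower and in the inhibitor step 31, with medians of -0.03 and -0.48. CHIR minus DMSO, which shares the DMSO arrays, had 31 of the 40 lower and a median of -0.44, and PD03 minus DMSO 14 and -0.15. Of the other 260 microRNA genes 9 and 12 were lower in these comparisons, and of all genes 10.8% and 8.15%.

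**Figure D5:**
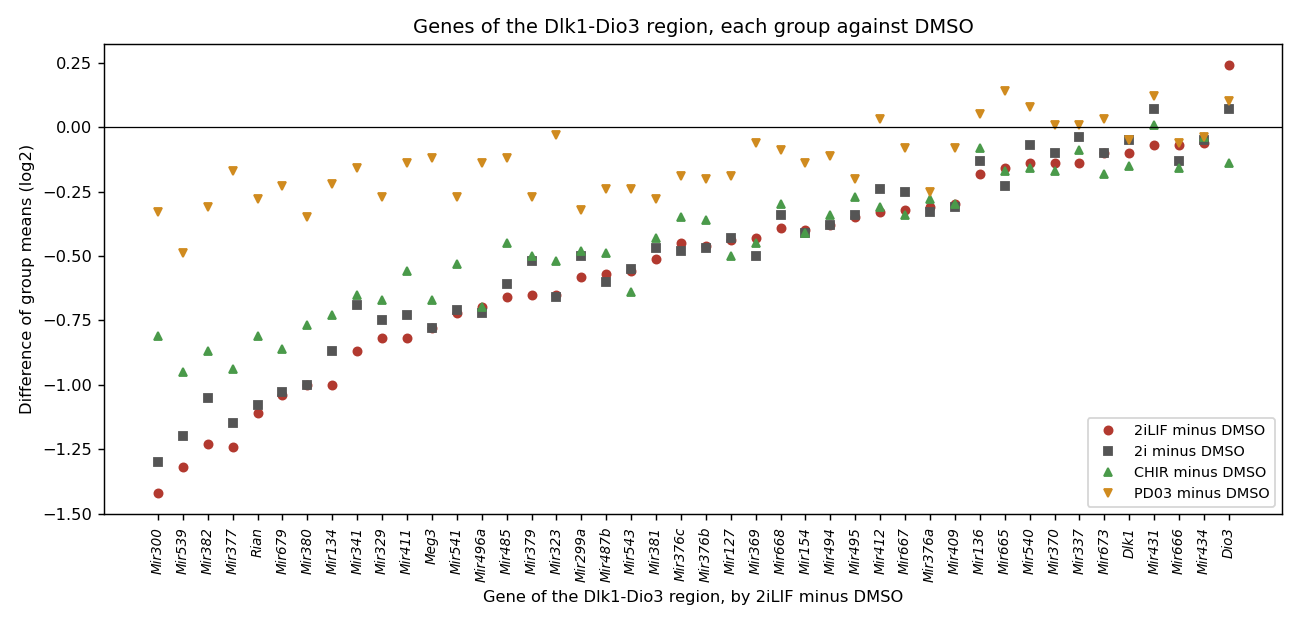
Points are differences of group means from DMSO, in log2 units, for the 40 measured microRNA genes of the Dlk1-Dio3 region and for Rian, Meg3, Dlk1 and Dio3, ordered by 2iLIF minus DMSO. The 2iLIF and 2i points lie near each other and are at -1.42 and -1.30 for Mir300, and over the 40 microRNA genes the CHIR points have a median of -0.44 and the PD03 points, nearer to 0, of -0.15.

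A second group, also noted after its values were seen, was the Mir106a to Mir363 cluster on the X chromosome, in which 5 of 5 measured genes were lower. Mir363 read 7.67, 8.11 and 8.18 against 9.07, 9.07 and 9.08 (-1.09 ± 0.11), and the others ran from -0.62 to -0.22. In the Mir302 cluster 4 of 5 were lower, from -0.76 to -0.41, and Mir367 was at 0.01. The means of Mir302a, Mir302b and Mir302c were under 6 in both groups and near background. For this cluster 3 of 5 were lower in the LIF step and 0 in the inhibitor step.

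Mature sequences of some of these microRNAs are shown with their seeds, bases 2 to 8, in capitals. Mir300 and Mir377 are among the genes described with their values, and the other sequences are pairs that share a seed within a cluster. They are RefSeq sequences on GRCm38.p6, 5′ to 3′, and 60 of the 63 microRNA genes past the threshold had one. The first 4 are from the Dlk1-Dio3 region, on the plus strand of chromosome 12, and miR-379-3p and miR-411-3p (chr12:109709102-109709123 and chr12:109710225-109710246) share the seed AUGUAAC. The next 4 are from the X chromosome, minus strand, as 2 pairs of equal seed, AAAGUGC and AUUGCAC. The last 2, from chromosome 3, plus strand, share AAGUGCU.
miR-300-3p: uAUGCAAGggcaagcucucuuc
miR-377-3p: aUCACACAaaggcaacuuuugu
miR-379-3p: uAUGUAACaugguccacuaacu
miR-411-3p: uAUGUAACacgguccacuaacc
miR-106a-5p: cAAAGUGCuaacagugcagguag
miR-20b-5p: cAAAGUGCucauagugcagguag
miR-363-3p: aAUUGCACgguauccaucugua
miR-92a-3p: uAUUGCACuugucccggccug
miR-302b-3p: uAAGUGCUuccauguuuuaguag
miR-302d-3p: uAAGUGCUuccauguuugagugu
These pairs come from genes past the threshold in clusters whose called microRNA genes were all lower, so their shared direction follows from the choice. Mir379 and Mir411 were at -0.65 and -0.81, and Mir106a and Mir20b at -0.44 and -0.49. Mir363 and Mir92-2 were at -1.09 and -0.22, and Mir302b and Mir302d at -0.76 and -0.53. The means of Mir379 were under 6 in both groups, and those of Mir411, Mir20b and Mir302d under 6 in 2iLIF, so these values are near background.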

How the data were processed

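RNA was labelled from 300 ng per sample and hybridised to 15 single-colour arrays, 3 per group, per the labels' protocols. The deposited values are on a log2 scale. RMA made them, with 1 value for each probe set, as the submitters' processing notes name it. Its version and the build of the array annotation are not given in the sources used here. RMA equalises the distributions of the arrays, so a shift common to nearly the whole transcriptome is lost, and it compresses differences of weak genes. The table held 34760 probe sets. The platform annotation gave 21640 exactly 1 symbol and 1321 several, and 11799 are unnamed here. For the 954 genes with more than 1 set the one with the highest mean over all arrays was kept, which left 19937 genes, with no filter on level.

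Group means of all 15 arrays were fitted with limma 3.58.1 (lmFit, eBayes defaults) in R 4.3.3, with 10 residual and 5.09 prior degrees of freedom, and p-values were adjusted over all genes by Benjamini-Hochberg, two-sided. Precision is limited by the number of arrays, and the standard error of 2iLIF minus DMSO had a median of 0.0509. The LIF step minus the inhibitor step is (2iLIF minus 2i) minus (2i minus DMSO). The code was tested on simulated data. The members and the 47 gene lists were chosen with earlier results of these data known. Named genes were the 15 highest and 15 lowest past the threshold without overlap of arrays and with predicted symbols left out, up to 4 per list past the threshold by size, the 6 genes with the largest excess for each step in the direction of the total, up to 6 microRNA genes per direction, and 20 genes taken whatever their result. The text leaves out some of them. Lists carry no test of their own. Alternatives were another set of arrays in the fit, the replicate block, other variance and scaling settings, a filter, other probe set rules and leaving out each replicate. Promoters and microRNAs came from RefSeq tables (GRCm38.p6). Figures were drawn with matplotlib 3.10.9.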

Additional observations from a re-analysis of the deposited data

Results flagged for a closer look

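Probe sets that the annotation does not tie to a gene were not part of the comparisons above and also differed. Of 11799 such sets 1493 passed in 2iLIF minus DMSO (12.7%), 24 of them at least 2-fold higher in 2iLIF and 38 at least 2-fold lower. The furthest were probe set 10516484, at 2.83 ± 0.11 (SE) with means of 11.02 in 2iLIF and 8.19 in DMSO, and probe set 10428619, at -3.12 ± 0.19 with means of 6.11 and 9.23 (limma adjusted p = 6.08e-10 and 4.04e-08, n = 3 per group). Which transcripts they read is not analysed here.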

How the results depend on the processing

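With a 2-fold minimum the counts of genes past the threshold were 401 in 2iLIF minus DMSO, 42 in 2iLIF minus 2i, 180 in 2i minus DMSO and 166 for the LIF step minus the inhibitor step. All 73 other counts of these 4 comparisons under the alternatives were within 1.5 times the reported ones. For 2iLIF minus DMSO they ran from 5898 to 7364, and from 6208 to 6880 with 1 replicate left out at a time. The ranges with 1 replicate left out were 1898 to 2512, 4352 to 5196 and 1225 to 1765 for the others in the same order. For 2iLIF minus DMSO the share of higher genes ran from 45.7% to 51.8%. With the replicate block 6811 genes passed in place of 6916. Deviations of same-numbered arrays from their group means correlated between -0.364 and 0.341, and 1 of the 6 arrays of 2iLIF and DMSO correlated best with its own number in the other group, so the numbers were not taken as pairs. Of 3645 log2 differences of the 203 named genes under an alternative, 3572 stayed on their side of the threshold, 73 in 13 genes lost the call and 0 changed sign. Of 1692 list counts 1582 were within 1.5 times. Probe sets of 1 gene could disagree, as given for Socs3, Etv5, Eed and Mitf. They also did so in list members that enter the counts. The kept and the other set gave 0.04 and 0.63 for Hk1, and 0.09 and -0.3 for Dppa3. For Irf1 they gave 0.33 and -0.03, and for Top2a -0.04 and 0.29. For Cycs the kept set gave 0.09 and the others 0.5 and 0.58. Signals near background, the lack of detection calls and 3 arrays per group limit what weak genes can show.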
